A study of Mus musculus with 21 samples.

Results

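MiR-124 is a microRNA (miRNA) made from 3 hairpins of the mouse genome. In the deposited count tables of mouse pituitary, 4 of 1934 distinct miRNA names begin with miR-124-. The tables of the virgin cohort list 3 of them among 1909 names, which are miR-124-3p.1, miR-124-3p.2 and miR-124-5p. The tables of the breeding trial cohort list 2 among 1841 names, miR-124-3p and miR-124-5p. MiR-124 was chosen by its measured values, a higher level in both *Zeb1* mutants than in wild-type (WT) pituitary, so its differences from WT are given as a description without a test. The difference between the mutants was not used in that choice and is tested.

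The study asked what happens in mice when the mRNA of *Zeb1*, which encodes a repressor of transcription, can no longer be bound by miR-200a/b. Small RNAs were isolated by size and sequenced for 21 pituitary libraries, each from a different female mouse of strain C57BL/6J. Heterozygous mice are named Zeb1_200H, homozygous mice Zeb1_200M, and Zeb1_WT mice (WT in the text) carry no edited allele.

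The virgin cohort held 3 WT, 4 Zeb1_200H and 4 Zeb1_200M libraries, from mice aged 8 to 12 weeks that were staged for proestrus, the phase of the cycle that precedes ovulation. The breeding trial cohort held 4 WT, 3 Zeb1_200H and 3 Zeb1_200M libraries, from mice aged 28 to 36 weeks that had finished a breeding trial. These mice were also staged for proestrus. The study reports that most Zeb1_200M females of the trial had no litter, and the rest had fewer litters than WT or Zeb1_200H females. Homozygous genotype and litter history thus go together in this cohort, and the labels do not give the litters of each mouse. The labels name no treatment, and the edit is a germline change that is not limited to the pituitary. The study bred the mutants from 2 clones of embryonic stem cells, and the labels do not say which clone each library goes back to. Each library is a whole gland, so for every value that follows, fewer cells of a type and less RNA per cell cannot be told apart.

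MiR-124 is among the most abundant miRNAs of neurons, and its level climbs as neurons mature. It pairs with mRNAs through the seed near its 5′ end and lowers transcripts that neurons do not use, among them the mRNA of the splicing factor PTBP1. The anterior pituitary consists mostly of hormone-secreting cells, while the posterior lobe holds the endings of hypothalamic axons and the glia around them. In the hairpin of miR-124, the 3p arm is the guide strand that acts on targets and the 5p arm is the passenger strand.

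The tissue label was checked with miRNAs of pituitary endocrine cells. In virgin WT, miR-7a-5p stood at 139540 ± 37868 CPM, which are counts scaled to the total of the library (SD, n = 3), and miR-375-3p at 118915 ± 22853 CPM (SD, n = 3). WT libraries of the breeding trial cohort had them at 122138 ± 13730 and 127759 ± 12787 CPM (SD, n = 4). Both were abundant in every WT library.

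Virgin WT replicates 1, 2 and 4 held 3816917, 10806313 and 9029142 counted reads. Virgin Zeb1_200H replicates 1 to 4 held 10266419, 9698685, 10082073 and 8551806, and virgin Zeb1_200M replicates 1 to 4 held 10515664, 9508346, 8502878 and 10260660. Virgin WT replicate 1 stands apart from the other 10 libraries of its cohort. It has the lowest total, a TMM scaling factor of 0.616 against 0.943 to 1.12, and 36.9% of its reads in its 3 most abundant miRNAs against 24.5% to 28.1%. The main values of virgin WT, and the comparisons with it, are therefore given with and without this library.

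The breeding trial libraries were much shallower. WT replicates 1 to 4 held 154546, 113937, 84093 and 191650 counted reads, Zeb1_200H replicates 1, 3 and 4 held 110003, 60037 and 131324, and Zeb1_200M replicates 1 to 3 held 87665, 124190 and 122810. At this depth 1 read is 5.22 to 16.7 CPM, against 0.0925 to 0.262 CPM in the virgin libraries. Limits and intervals given for counts and shares cover counting error only, since reads copied by PCR are not independent molecules.

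In genome build GRCm38, the 3 hairpins lie on the plus strand of 3 chromosomes. *Mir124a-1* (ENSMUSG00000065597) is on chromosome 14 at chr14:64590657-64590741, in an exon of the long noncoding RNA gene *Mir124a-1hg*. *Mir124a-2* (ENSMUSG00000093073) is at chr3:17795662-17795770 and partly overlaps an exon of the long noncoding RNA gene *Mir124-2hg*. *Mir124a-3* (ENSMUSG00000065454) is at chr2:180894040-180894107, where the annotation names no host gene. The counts do not say from which hairpin a read came. In the names used for the virgin libraries, the final digit after 3p marks forms of that arm with different 5′ ends, while the breeding trial tables have a single name for that arm. Which sequence each name stands for, and whether the single name takes reads of both forms, is not given in the sources used here.

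The first question is how much miR-124 each genotype of the virgin cohort held. MiR-124-3p.1, the more abundant form of the guide strand, stood at 383, 1020 and 1113 CPM in WT replicates 1, 2 and 4, which is 838 ± 398 CPM (SD, n = 3). It stood at 3089, 3073, 3333 and 3487 CPM in Zeb1_200H, or 3246 ± 200 CPM (SD, n = 4), and at 5653, 4622, 5717 and 3777 CPM in Zeb1_200M, or 4942 ± 925 CPM (SD, n = 4). The 3 genotypes did not overlap: WT was lowest, Zeb1_200H lay between, and Zeb1_200M was highest, with Zeb1_200M replicate 4 closest to the Zeb1_200H libraries. WT replicate 1 was the lowest library of all, and without it the WT mean was 1066 CPM. Every Zeb1_200M library lay above every WT library for 207 of 678 miRNAs tested, and every Zeb1_200H library for 191 of 672. Between the mutants, Zeb1_200M lay wholly above Zeb1_200H for 40 of 675.

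MiR-124-3p.2, the less abundant form, stood at 175, 274 and 316 CPM in WT replicates 1, 2 and 4, or 255 ± 72.8 CPM (SD, n = 3). In Zeb1_200H it stood at 777, 779.9, 863 and 867 CPM (822 ± 50.2 CPM, SD, n = 4), and in Zeb1_200M at 1499, 1215, 1462 and 989.6 CPM (1292 ± 238 CPM, SD, n = 4). This form also separated the 3 genotypes without overlap, in the same order, beside the counts over all miRNAs given above. The sum of both forms, called miR-124-3p from here on, was 1094 ± 469 CPM in WT (n = 3), 4067 ± 249 CPM in Zeb1_200H (n = 4) and 6234 ± 1162 CPM in Zeb1_200M (n = 4), each with its SD. As a share of counted reads, this was 0.109% in WT, 0.407% in Zeb1_200H and 0.623% in Zeb1_200M. Without WT replicate 1, the WT mean of the sum was 1362 CPM, or 0.136%.

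The passenger strand miR-124-5p was far less abundant than the guide strand. It had 4, 9 and 13 reads in WT replicates 1, 2 and 4, with 38, 39, 29 and 22 reads in Zeb1_200H and 69, 38, 62 and 52 reads in Zeb1_200M. Its level was 1.11 ± 0.308 CPM in WT (SD, n = 3), 3.29 ± 0.681 CPM in Zeb1_200H (SD, n = 4) and 5.73 ± 1.48 CPM in Zeb1_200M (SD, n = 4). All mutant libraries had more CPM of miR-124-5p than all 3 WT libraries. Ranges lay apart in this way for 207 of 678 miRNAs tested in Zeb1_200M and 191 of 672 in Zeb1_200H. The mutants overlapped each other, since the highest Zeb1_200H library had 4.02 CPM and the lowest Zeb1_200M library 4.00 CPM.

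**Figure D1:**
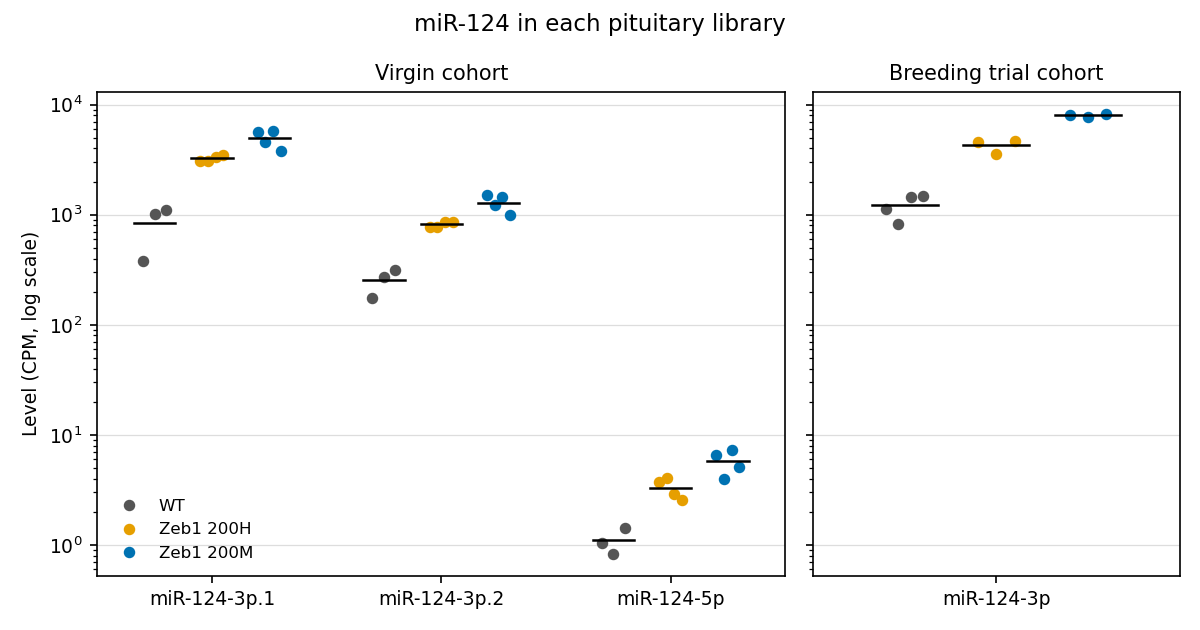
Level of each miR-124 name in each pituitary library, in CPM on a log scale, with 1 point per library, a bar at the mean of each genotype, and the cohorts in separate panels. The 3p names separate the 3 genotypes in both cohorts, and miR-124-5p, shown for the virgin cohort, does not separate the mutants.

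In the TMM-normalized fit of Zeb1_200M and virgin WT, the log2 fold change was 2.26 (standard error 0.258) for miR-124-3p.1, 1.98 (0.182) for miR-124-3p.2 and 2.05 (0.365) for miR-124-5p. These were ranks 3, 6 and 5 among the log2 fold changes of the 678 miRNAs tested, of which edgeR called 18 increased at an adjusted p (Benjamini-Hochberg) below 0.05, or 2.65%. Since miR-124 was chosen on this contrast, nothing is read from its place among them. Without WT replicate 1, the log2 fold changes were 2.05, 1.97 and 2.18, so each miR-124 name was higher in Zeb1_200M with and without it. The background moved far more than miR-124 did, to 94 increased miRNAs without WT replicate 1, 10 without WT replicate 2, and 9 or 10 without any 1 Zeb1_200M library.

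For virgin Zeb1_200H against WT, the log2 fold change was 1.71 (standard error 0.218) for miR-124-3p.1 and 1.32 (0.338) for miR-124-5p. MiR-124-3p.2 was 2.61-fold higher, with a standard error of 0.133 on the log2 scale. The value of miR-124-3p.1 was the highest of the 672 miRNAs tested, of which edgeR called 11 increased, or 1.64%, and again nothing is read from that place. With WT replicate 1 left out, the log2 fold changes were 1.48 for miR-124-3p.1, 1.35 for miR-124-3p.2 and 1.43 for miR-124-5p. The number of increased miRNAs was then 74, while it was 6 without WT replicate 4 and 5 without any 1 Zeb1_200H library. The comparisons of Zeb1_200M and Zeb1_200H with WT share their WT libraries.

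The breeding trial cohort asks the same question in older mice that had been mated. MiR-124-3p had 174, 94, 121 and 283 reads in WT replicates 1 to 4, 508, 214 and 611 reads in Zeb1_200H replicates 1, 3 and 4, and 705, 961 and 1011 reads in Zeb1_200M replicates 1 to 3. As levels, these were 1126, 825, 1439 and 1477 CPM in WT (1217 ± 305 CPM, SD, n = 4) and 4618, 3564 and 4653 CPM in Zeb1_200H (4278 ± 619 CPM, SD, n = 3). Zeb1_200M libraries held 8042, 7738 and 8232 CPM of miR-124-3p (8004 ± 249 CPM, SD, n = 3). The genotypes were again apart and in the same order, with WT replicate 2 and Zeb1_200H replicate 3 the lowest of their groups. Zeb1_200M lay wholly above WT for 92 of 276 miRNAs tested, and Zeb1_200H for 63 of 267. Between the mutants, Zeb1_200M lay wholly above Zeb1_200H for 33 of 274.

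The log2 fold change of miR-124-3p over WT in this cohort was 2.48 (standard error 0.138) in Zeb1_200M and 1.64 (0.168) in Zeb1_200H. Each was the highest of its fit, among 276 and 267 miRNAs tested. In these fits edgeR called 56 miRNAs increased in Zeb1_200M, or 20.3%, and 13 in Zeb1_200H, or 4.87%, and nothing is read from the place of miR-124-3p. With DESeq2 the counts were 32 and 7. The count for Zeb1_200H was 7 or 8 without WT replicate 1, WT replicate 4 or any 1 Zeb1_200H library, and 23 with the replicate number as a block. MiR-124-5p had 0, 0, 1 and 0 reads in WT, 2, 1 and 4 in Zeb1_200H and 1, 4 and 4 in Zeb1_200M. The counts of 0 in WT replicates 1, 2 and 4 allow up to 19.4, 26.3 and 15.7 CPM (3 reads). Group means of miR-124-5p were 2.97 CPM in WT, 21.8 CPM in Zeb1_200H and 25.4 CPM in Zeb1_200M. As measured, every Zeb1_200H library lay above every WT library, while the lowest Zeb1_200M library (11.4 CPM) lay just below the highest WT library (11.9 CPM). The lowest Zeb1_200H level, 16.7 CPM, is below the limits of WT replicates 1 and 2, so this order is not resolved. Each of these levels rests on 0 to 4 reads, and miR-124-5p was below the expression filter of the fits.

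The comparison of the mutants asks whether a second edited allele goes with more miR-124. In the virgin cohort, miR-124-3p.1 was higher in 4 of 4 Zeb1_200M samples than in every Zeb1_200H sample, with a log2 fold change of 0.55 and a standard error of 0.116 (adjusted p = 0.0239 by edgeR). MiR-124-3p.2 was also higher in 4 of 4 samples, by 0.60 with a standard error of 0.117 (adjusted p = 0.0152 by edgeR). Both were among 40 of the 675 tested miRNAs with this separation. Both forms of the guide strand thus rose from Zeb1_200H to Zeb1_200M, by 1.46-fold and 1.51-fold. The gap between the groups was narrow, since the lowest Zeb1_200M library held 1.08 times the miR-124-3p.1 and 1.14 times the miR-124-3p.2 of the highest Zeb1_200H library.

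The log2 fold change of miR-124-5p between the mutants was 0.74, with a standard error of 0.237 (adjusted p = 0.254 by edgeR), which did not pass the threshold of 0.05. In this fit, edgeR tested 675 miRNAs and called 15 of them. Among these, 5 were increased, or 0.741% of those tested, and 2 of the 5 were the forms of miR-124-3p. The others, named after their values were seen, were miR-202-5p (1.29), miR-770-5p (0.36) and miR-770-3p (0.37), with log2 fold changes in parentheses. The 10 decreased miRNAs included 7 strands of the miR-200 family, which ZEB1 represses.

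The calls of both miR-124-3p forms between the virgin mutants depended on single libraries and on the fit. Leaving out Zeb1_200H replicate 1 gave edgeR adjusted p values of 0.0736 for miR-124-3p.1 and 0.0516 for miR-124-3p.2, and leaving out Zeb1_200H replicate 2 gave 0.0930 and 0.0687. Leaving out Zeb1_200M replicate 1 ended the call of miR-124-3p.1 (edgeR, adjusted p = 0.0645). An edgeR fit of all 3 genotypes gave 0.515 and 0.0708, and the same fit without WT replicate 1, tried after the data were seen, gave 0.00690 and 0.00578. Over all alternatives, adjusted p ran from 8.65e-05 to 0.515 for miR-124-3p.1 and from 6.48e-05 to 0.0708 for miR-124-3p.2 (edgeR, DESeq2 and limma). Both forms were higher in Zeb1_200M under each of these alternatives.

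Among the breeding trial libraries, miR-124-3p was higher in 3 of 3 Zeb1_200M samples than in every Zeb1_200H sample, with a log2 fold change of 0.85 and a standard error of 0.131 (adjusted p = 1.15e-07 by edgeR). This is a 1.80-fold rise, and the lowest Zeb1_200M library held 1.66 times the miR-124-3p of the highest Zeb1_200H library. MiR-124-3p was among 33 of 274 tested miRNAs whose Zeb1_200M libraries all lay above all Zeb1_200H libraries. Of 274 miRNAs tested, edgeR called 3, and miR-124-3p was the 1 that was increased, or 0.365% of those tested. The others, both decreased, were miR-200c-3p (−1.28) and miR-141-3p (−1.02). The call of miR-124-3p held under every alternative and without each library in turn, with adjusted p values up to 0.000743 (edgeR, DESeq2 and limma). In this cohort the second edited allele also goes with fewer litters, and the 2 cannot be told apart. Whether the difference between the mutants differs between cohorts was not tested.

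On the linear scale of mean CPM, Zeb1_200H lay 57.9% of the way from WT to Zeb1_200M for virgin miR-124-3p. Leaving out WT replicate 1, it lay 55.5% of the way, and in the breeding trial cohort 45.1%. The miR-124-3p level of the heterozygous mice was thus near the middle between the others in both cohorts.

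Ordered by mean CPM, miR-124-3p.1 was at rank 110 of the 1170 miRNAs with a count in virgin WT, at rank 52 of 1286 in Zeb1_200H and at rank 40 of 1267 in Zeb1_200M. MiR-124-3p.2 was at ranks 194, 121 and 91, and miR-124-5p at ranks 635, 537 and 503. Without WT replicate 1, the ranks in WT were 102, 190 and 637 of 1144. The breeding trial libraries had miR-124-3p at rank 93 of 641 in WT, 39 of 575 in Zeb1_200H and 25 of 604 in Zeb1_200M. The guide strand of miR-124 thus stood among the more common pituitary miRNAs in the mutants, and the passenger strand near the middle of the order in every genotype of the virgin cohort.

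With both forms summed, virgin miR-124-3p stood in WT between miR-96-5p (1130 CPM) and miR-484 (1057 CPM), and in Zeb1_200M between miR-132-3p (6642 CPM) and miR-103/107-3p (6184 CPM). For the breeding trial libraries, miR-124-3p stood in WT between miR-301a-3p (1246 CPM) and miR-495-3p (1199.9 CPM), and in Zeb1_200M between miR-26b-5p (8084 CPM) and miR-451a (7755 CPM). None of these 8 neighbours differed from miR-124-3p by more than the SD of miR-124-3p, so these places in the order are not exact.

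The split of guide strand reads between the forms is a ratio within a library, which scaling between libraries does not touch, and it was not used to choose miR-124. MiR-124-3p.2 made up 31.4% of miR-124-3p reads in virgin WT replicate 1 (95% Wilson interval 29.4% to 33.4%), 21.2% in WT replicate 2 (20.5% to 21.9%) and 22.1% in WT replicate 4 (21.4% to 22.9%). It made up 20.1%, 20.2%, 20.6% and 19.9% in Zeb1_200H replicates 1 to 4, and 21.0%, 20.8%, 20.4% and 20.8% in Zeb1_200M replicates 1 to 4. WT replicate 1 stands far above the rest, and the other 10 libraries lie between 19.9% and 22.1%. The 8 mutant libraries had a mean share of 20.5% (SD 0.371).

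**Figure D2:**
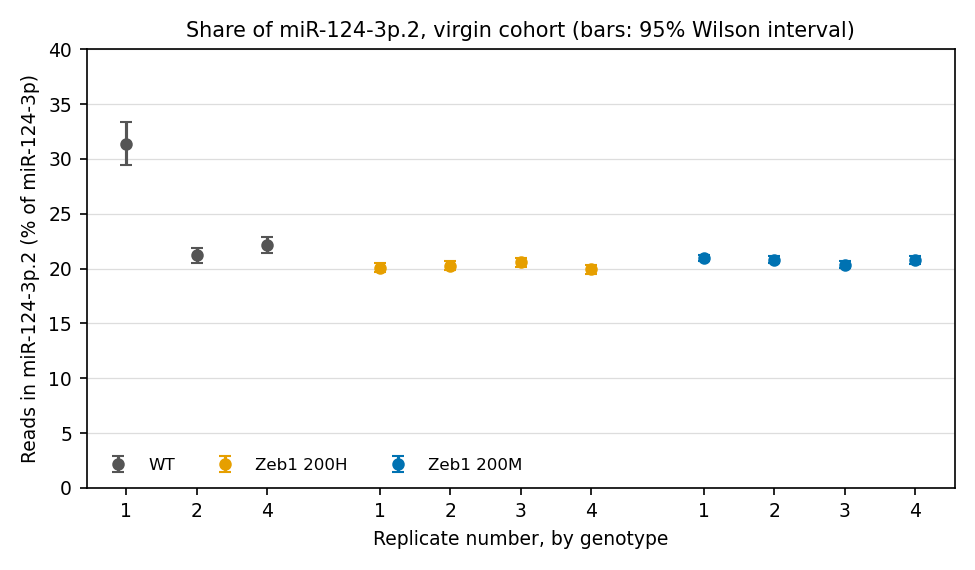
Percent of miR-124-3p reads that were miR-124-3p.2 in each library of the virgin cohort, by genotype and replicate number, with bars for the 95% Wilson interval. WT replicate 1, at 31.4%, lies above the other libraries, and the 8 mutant libraries lie between 19.9% and 21.0%.

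Across the table, log2 ratios of isoform pairs and of the arms of each hairpin were tested with limma. The log2 ratio of miR-124-3p.2 to miR-124-3p.1 differed by −0.32 between Zeb1_200M and WT (standard error 0.223, limma, adjusted p = 0.626) and by −0.37 between Zeb1_200H and WT (standard error 0.221, limma, adjusted p = 0.550). Between Zeb1_200M and Zeb1_200H it differed by 0.05 (standard error 0.0379, limma, adjusted p = 0.897). None of these differences in the split of miR-124-3p passed the threshold. Limma called 0 of 215, 0 of 211 and 0 of 218 pair ratios in the 3 comparisons, or 0% in each, while 11, 7 and 10 had an unadjusted p below 0.05.

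With WT replicate 1 left out, the difference from WT in the log2 ratio of miR-124-3p.2 to miR-124-3p.1 was −0.08 in Zeb1_200M and −0.13 in Zeb1_200H (limma, adjusted p = 0.654 and 0.391). On the percent scale, a two-sided exact permutation test gave a difference of −4.17 percentage points for Zeb1_200M against WT (p = 0.0286, adjusted over 3 comparisons 0.0429). The same exact permutation test gave −4.70 points for Zeb1_200H against WT (p = 0.0286, adjusted 0.0429), and 0.0286 is the smallest p that 35 splits allow. All 8 mutant libraries thus had a smaller share of miR-124-3p.2 than all 3 WT libraries. Other pairs were not examined for such a separation, so no background stands beside it. Most of the mean difference lay in WT replicate 1. Without that library, an alternative added after the data were seen, the differences were −0.944 and −1.47 points, and the exact permutation test over 15 splits gave p = 0.0667 in each, the smallest it can give, so it could not pass 0.05. Between the mutants the difference was 0.522 points (exact permutation test over 70 splits, p = 0.0571, adjusted 0.0571).

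The arms of miR-124 kept a wide distance from each other in every genotype. Pooled over the virgin libraries, miR-124-5p made up 0.895 of every 1000 miR-124 reads in WT (95% Wilson interval 0.611 to 1.31), 0.817 in Zeb1_200H (0.687 to 0.971) and 0.917 in Zeb1_200M (0.804 to 1.05). These intervals overlap. The log2 ratio of miR-124-5p to miR-124-3p differed from WT by −0.32 in Zeb1_200M and by −0.50 in Zeb1_200H, and by 0.18 between the mutants (limma, adjusted p = 0.689, 0.552 and 0.897). Leaving out WT replicate 1 gave 0.12 for Zeb1_200M and −0.06 for Zeb1_200H against WT (limma, adjusted p = 0.863 and 0.952). The direction of this ratio in Zeb1_200M, and most of its size in Zeb1_200H, thus rest on that library.

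Pooled over the breeding trial libraries, miR-124-5p made up 1.49 of every 1000 miR-124 reads in WT (1 read, 95% Wilson interval 0.262 to 8.37). It made up 5.22 in Zeb1_200H (7 reads, 2.53 to 10.7) and 3.35 in Zeb1_200M (9 reads, 1.76 to 6.36). In both mutants the intervals lie above those of the virgin cohort, and no test was made of this. Cohort coincides with age, breeding history, RNA input, sequencing instrument and the set of miRNA names, which cannot be told apart.

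The interaction of genotype and cohort asks whether the difference of miR-124-3p from WT depends on the cohort. For Zeb1_200M, the log2 fold change of miR-124-3p was larger by 0.20 in the breeding trial cohort with a standard error of 0.290. For Zeb1_200H, the difference between cohorts was −0.09 with a standard error of 0.288. These values are built from the differences on which miR-124 was chosen, so they are a description without a test. Over the miRNAs that both cohorts name, edgeR called 0 of 496 interactions for Zeb1_200M and 0 of 500 for Zeb1_200H, or 0% in each, and nothing is read from this for miR-124-3p. DESeq2 also called 0 and 0, and 27 and 26 had an unadjusted p below 0.05 in edgeR. The sign of the Zeb1_200H value of miR-124-3p turned without virgin WT replicate 1 (0.15), virgin Zeb1_200H replicate 3 (0.04), or WT replicate 3 (0.04), WT replicate 4 (0.16) or Zeb1_200H replicate 3 (0.08) of the breeding trial. Without virgin WT replicate 1, the value for Zeb1_200M was 0.47.

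MiR-124 was set beside 12 other miRNAs known to be enriched in brain: miR-9-5p, miR-9-3p, miR-128-3p, miR-129-5p, miR-132-3p, miR-137-3p, miR-138-5p, miR-153-3p, miR-212-3p, miR-218-5p, miR-384-5p and miR-488-3p. In virgin WT replicates 1, 2 and 4 these 12 summed to 14942, 16856 and 17716 CPM. They summed to 17737, 21121, 19218 and 19177 CPM in Zeb1_200H and to 20514, 21112, 21869 and 19247 CPM in Zeb1_200M. On this scale the sum was higher in the mutants than in WT, and the mutants overlapped. Over all miRNAs tested, Zeb1_200M lay wholly above WT for 207 of 678, Zeb1_200H above WT for 191 of 672, and Zeb1_200M above Zeb1_200H for 40 of 675. How many met all of these at once was not counted. Of the list members, miR-384-5p kept the 3 genotypes apart, at up to 657 CPM in WT, 1012 to 1072 in Zeb1_200H and 1095 to 1238 in Zeb1_200M. MiR-488-3p did so too, at up to 17.6 CPM in WT, 23.9 to 30.4 in Zeb1_200H and 31.0 to 34.3 in Zeb1_200M. The other members did not. Divided by the TMM factors, an alternative added after the data were seen, the sum was 24272, 17873 and 18071 in WT, 17061 to 19455 in Zeb1_200H and 18036 to 19679 in Zeb1_200M, so that all 3 genotypes overlapped, with WT replicate 1 the highest. On the TMM scale the mean sum thus differed from WT by −1111 in Zeb1_200M and −1797 in Zeb1_200H, and by 989 and 303 without WT replicate 1, so the sign rests on that library. MiR-124-3p kept the genotypes apart on the TMM scale as well, at 905 to 1458 in WT, 3549 to 4095 in Zeb1_200H and 4467 to 6717 in Zeb1_200M. The most abundant member of the list was miR-132-3p, which neuronal activity induces, at 6129 CPM in WT, 5918 CPM in Zeb1_200H and 6642 CPM in Zeb1_200M. Its log2 fold change over WT in the TMM-normalized fits was −0.32 in Zeb1_200M, where its mean CPM was higher than in WT, and −0.44 in Zeb1_200H, and edgeR called neither.

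For each read of the 12 brain-enriched miRNAs, virgin libraries held 0.0649 ± 0.0240 reads of miR-124-3p in WT (SD, n = 3), 0.211 ± 0.0198 in Zeb1_200H (SD, n = 4) and 0.300 ± 0.0464 in Zeb1_200M (SD, n = 4). For the breeding trial libraries these ratios were 0.0501 ± 0.0138 in WT (SD, n = 4), 0.137 ± 0.0191 in Zeb1_200H (SD, n = 3) and 0.259 ± 0.0153 in Zeb1_200M (SD, n = 3). This ratio lay in the same order of genotypes and without overlap. Its upper part is the level for which miR-124 was chosen, so it is a description without a test. In virgin WT replicate 1 this ratio was 0.0373, against 0.0768 and 0.0807 in WT replicates 2 and 4, whose mean was 0.0787.

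In virgin Zeb1_200M against WT, edgeR called 1 of the 12 increased, miR-488-3p with a log2 fold change of 1.12, and 0 decreased, beside 2.65% and 3.83% of all miRNAs tested. In this comparison 3 of the 12 had an unadjusted p below 0.05, beside 150 of 678 miRNAs, and DESeq2 called 3, the fit of all 3 genotypes 3, voom quality weights 5 and a block of replicate numbers 0. Over all miRNAs these settings called 87, 90, 184 and 20, in place of 44. The median log2 fold change of the 12 was 0.27 in each mutant against WT, beside 2.26 and 1.71 for miR-124-3p.1, and the median over all miRNAs tested was within 0.01 of 0. EdgeR called 0 of the 12 in Zeb1_200H against WT (2 at an unadjusted p below 0.05, and 2 called by DESeq2), beside 34 of 672 miRNAs called, 131 at an unadjusted p below 0.05 and 66 called by DESeq2. It called 0 between the mutants (2 at an unadjusted p below 0.05, and 0 by DESeq2), where the median was 0.02 and both miR-124-3p forms were called, beside 15 of 675 miRNAs called, 63 at an unadjusted p below 0.05 and 20 called by DESeq2. The call of miR-488-3p was lost without WT replicate 4 or any 1 Zeb1_200M library, while without WT replicate 1 edgeR called 4 of the 12 increased and 1 decreased in each mutant against WT. Without that library 13.4% of 703 miRNAs were called increased in Zeb1_200M and 10.6% of 699 in Zeb1_200H, and the medians of the 12 were 0.22 and 0.21.

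In the breeding trial cohort, the 12 summed to 23618, 25804, 22416 and 26162 CPM in WT, 30890.1, 30898 and 31571 CPM in Zeb1_200H and 29168, 31500.1 and 32229 CPM in Zeb1_200M. On this scale the mutants were above WT and overlapped each other, whereas miR-124-3p kept them apart. Over all miRNAs tested, Zeb1_200M lay wholly above WT for 92 of 276, Zeb1_200H above WT for 63 of 267, and Zeb1_200M above Zeb1_200H for 33 of 274. How many met all of these at once was not counted. Of the list members, miR-384-5p also kept the 3 genotypes apart, at up to 992 CPM in WT, 1327 to 1582 in Zeb1_200H and 1586 to 1654 in Zeb1_200M. MiR-137-3p did so too, at up to 2927 CPM in WT, 3215 to 4027 in Zeb1_200H and 4079 to 4630 in Zeb1_200M. The other members did not. Divided by the TMM factors, the sum was 24444 to 29295 in WT, 29806 to 30170 in Zeb1_200H and 27232 to 29624 in Zeb1_200M, so that Zeb1_200M overlapped WT. Of 10 members tested, edgeR called 3 increased in Zeb1_200M against WT, miR-9-5p (0.89), miR-384-5p (0.64) and miR-137-3p (0.44), and 1 decreased, miR-129-5p (−0.38), with log2 fold changes in parentheses. The 3 of 10 stand beside 20.3% of all miRNAs tested in that fit that were called increased, and the 1 beside 15.6% called decreased, so both shares are near the background. In Zeb1_200M against WT 5 of the 10 had an unadjusted p below 0.05 in edgeR, beside 123 of 276 miRNAs. In Zeb1_200H against WT 6 of the 10 did, beside 73 of 267 miRNAs, which is a larger share than that over all miRNAs. Of these 6, miR-218-5p was lower (−0.33) and the others higher. There edgeR called miR-384-5p (0.50), beside 4.87% called increased over all miRNAs. That call was lost without WT replicate 1 or 4 or Zeb1_200H replicate 1 or 4, and DESeq2 and a fit without the filter called 0 of the list. DESeq2 also called fewer miRNAs increased over all. A block of replicate numbers called 3 of the list, beside a larger count over all miRNAs, which is given with the processing. Between the mutants edgeR called 0 of 10 (4 at an unadjusted p below 0.05, and 0 by DESeq2), beside 3 of 274 miRNAs called and 40 at an unadjusted p below 0.05, so that 4 of 10 is a larger share than that over all miRNAs. These 4 went both ways. In Zeb1_200M, miR-137-3p (0.29) and miR-218-5p (0.39) were higher, while miR-132-3p (−0.28) and miR-212-3p (−0.40) were lower. The medians were 0.19, 0.21 and 0.16 in these comparisons, beside 2.48, 1.64 and 0.85 for miR-124-3p. The part of brain tissue or neurons in the level of miR-124 was not tested.

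**Figure D3:**
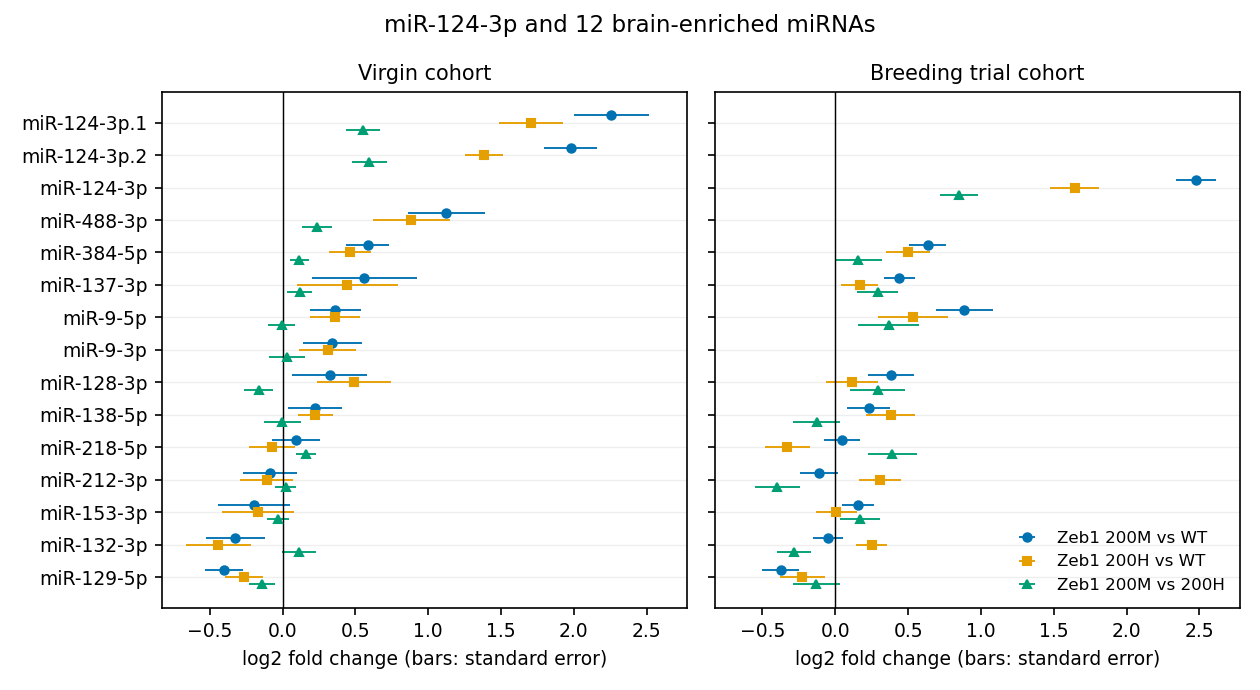
Log2 fold change, with bars for its standard error, of the miR-124-3p names and the 12 brain-enriched miRNAs in each pair of genotypes, with the cohorts in separate panels. The miR-124-3p names lie furthest to the right in both comparisons with WT, and those comparisons are the ones on which miR-124 was chosen.

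Markers of other cells were read in the same fits, since their share of the gland could move with miR-124. In Zeb1_200M against WT of the breeding trial cohort, where miR-124-3p was higher by 2.48, the oligodendrocyte miRNA miR-338-3p was higher by 0.45, and 1 of 2 tested members of its list was called. The leukocyte miRNA miR-223-3p was higher by 1.06 (1 of 3 called), the red blood cell miRNA miR-144-3p by 0.57 (1 of 2), and the endothelial miRNA miR-126a-5p by 0.39 (1 of 1). The smooth muscle miRNAs miR-143-3p and miR-145a-5p were higher by 0.39 and 0.33 (2 of 2 called). These counts stand beside 56 of 276 miRNAs called increased in the same fit, or 20.3%. All of these log2 fold changes were called by edgeR. MiR-124-3p was chosen on this contrast, so nothing is read from its larger value. None of these list members was called in Zeb1_200H against WT or between the mutants, where miR-124-3p differed by 1.64 and 0.85. Over all miRNAs, 4.87% and 0.365% were called increased there. In Zeb1_200H their log2 fold changes were 0.46 (miR-338-3p), 0.83 (miR-223-3p), 0.44 (miR-144-3p), 0.23 (miR-126a-5p), 0.30 (miR-143-3p) and 0.01 (miR-145a-5p). Between the mutants, in the same order, they were 0.02, 0.25, 0.15, 0.17, 0.11 and 0.34.

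Over the breeding trial libraries the smooth muscle list summed to 3669 to 4091 CPM in WT, 4464 to 5163 CPM in Zeb1_200H and 5564 to 6217 CPM in Zeb1_200M. MiR-126a-5p stood at 2176 to 2421, 2598 to 3491 and 3461 to 3672 CPM in the same order. The oligodendrocyte list summed to 832 to 1236, 1345 to 1866 and 1554 to 1802 CPM, with miR-219a-2-3p at 0 in all WT libraries. The leukocyte list, with miR-150-5p most abundant in WT, summed to 272 to 470, 483 to 518 and 603 to 833 CPM, and the red blood cell list, mostly miR-451a, to 5767 to 8364, 6727 to 8711 and 7198 to 10870.5 CPM. The smooth muscle and leukocyte lists thus separated the 3 genotypes in the order that miR-124-3p did, while the mutants overlapped in the other lists. Divided by the TMM factors, Zeb1_200H overlapped WT in both, at 4306 to 4898 against 3981 to 4461 for smooth muscle and 466 to 506 against 295 to 526 for leukocytes, with Zeb1_200M above both groups. The part of these cells in the level of miR-124 was not tested.

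In the virgin cohort, edgeR called 1 member of these lists in Zeb1_200M against WT, miR-145a-5p of smooth muscle (0.57), and 0 in Zeb1_200H against WT or between the mutants, where 2.65%, 1.64% and 0.741% of all miRNAs were called increased. Without WT replicate 1, where 13.4% and 10.6% of all miRNAs were called increased, it called miR-338-3p, miR-338-5p, miR-150-5p, miR-145a-5p and miR-1a-3p increased in both mutants, miR-206-3p in Zeb1_200M and miR-223-3p in Zeb1_200H. The virgin smooth muscle list summed to 1867 to 2395 CPM in WT, 2017 to 3697 CPM in Zeb1_200H and 2019.7 to 4412 CPM in Zeb1_200M, so that unlike miR-124 it did not separate the genotypes. Its miR-143-3p stood at 591 CPM in Zeb1_200H replicate 3 and 26.1 CPM in Zeb1_200M replicate 3, against 1109 to 2474 CPM in the other virgin libraries. Its other member, miR-145a-5p, stood at 645 to 1198 CPM in WT, 1426 to 1720 CPM in Zeb1_200H and 1635 to 1994 CPM in Zeb1_200M, so that WT lay below both mutants, which overlapped. Virgin levels of the oligodendrocyte list were 498 to 639 CPM in WT, 795 to 854 CPM in Zeb1_200H and 783 to 888 CPM in Zeb1_200M. Those of the endothelial miR-126a-5p were 504 to 1416, 1462 to 1775 and 1515 to 1714 CPM, and those of the leukocyte list 94.8 to 329, 362 to 476 and 354 to 531 CPM. In these 3 lists the sums of all mutant libraries lay above those of all WT libraries and the mutants overlapped, whereas the red blood cell list, at 4954 to 9016, 7863 to 18024 and 8803 to 10461 CPM, also overlapped WT. Within the oligodendrocyte list, mean CPM of miR-338-3p was 402 in WT, 633 in Zeb1_200H and 671 in Zeb1_200M, while that of miR-219a-5p went the other way, at 156, 145 and 128, with log2 fold changes over WT of −0.53 in Zeb1_200H and −0.76 in Zeb1_200M, neither called by edgeR. Divided by the TMM factors, WT reached 809, 1501 and 336 for oligodendrocytes, endothelium and leukocytes, above the lowest mutant library in each (734, 1353 and 332). The part of these cells in the virgin level of miR-124 was not tested. Group means of the virgin cohort for miR-1a-3p and miR-206-3p of striated muscle summed to 6.17 CPM in WT and 30.9 CPM in Zeb1_200M, with Zeb1_200H between them, and neither was called in Zeb1_200M against WT with all libraries (adjusted p = 0.105 and 0.0560 by edgeR), while both were called without WT replicate 1 (adjusted p = 0.0308 and 0.0163 by edgeR). Both were below the filter in the breeding trial cohort, where miR-1a-3p went the other way, with a mean of 16.0 CPM in WT, 13.2 CPM in Zeb1_200H and less in Zeb1_200M (0 to 11.4 CPM), and miR-206-3p was at 0 in all WT and all Zeb1_200M libraries.

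The endocrine list (miR-7a-5p, miR-7b-5p and miR-375-3p) had a lower mean sum in the mutants than in WT, while miR-124 was higher. It summed to 303840 ± 56418 CPM in virgin WT (SD, n = 3), 264773 ± 9925 in Zeb1_200H and 250995 ± 22184 in Zeb1_200M (SD, n = 4). WT replicate 1 held 368951 CPM of this list, and WT replicates 2 and 4 held 269425 and 273145 CPM, next to the 253180 to 277444 CPM of Zeb1_200H. Zeb1_200M libraries held 231804 to 279905 CPM, so that without WT replicate 1 (WT mean 271285 CPM) both mutants overlapped WT. Divided by the TMM factors, WT replicates 2 and 4 (285677 and 278622) lay above all libraries of Zeb1_200H (to 267824) and Zeb1_200M (to 262302). The members of the list differed: miR-375-3p had a lower mean CPM in both mutants, at 118915 in virgin WT, 87108 in Zeb1_200H and 82660 in Zeb1_200M, while miR-7b-5p had a higher one, at 45385, 55308 and 53867. In the TMM-normalized fits miR-7b-5p went the other way, with log2 fold changes over WT of −0.07 in Zeb1_200H and −0.16 in Zeb1_200M, neither called by edgeR. The breeding trial sums were 300364 ± 12911 CPM in WT (SD, n = 4), 274480 ± 13318 in Zeb1_200H and 253305 ± 6894 in Zeb1_200M (SD, n = 3). There the mean CPM of miR-7b-5p was 50467 in WT, 55336 in Zeb1_200H and 50804 in Zeb1_200M, and that of miR-7a-5p was 122138, 123442 and 105048, so that neither was lower in Zeb1_200H on this scale. In the TMM-normalized fits, the log2 fold changes in Zeb1_200H were −0.16 for miR-7a-5p and −0.04 for miR-7b-5p. That of miR-7b-5p in Zeb1_200M was −0.22, and edgeR called none of these 3. In that cohort edgeR called miR-375-3p (−0.62) and miR-7a-5p (−0.45) decreased in Zeb1_200M against WT, and miR-375-3p (−0.59) in Zeb1_200H against WT. Over all miRNAs, 15.6% and 7.12% were called decreased in these fits. EdgeR called 0 of 3 members in the virgin cohort, where 2 and 1 had an unadjusted p below 0.05 in Zeb1_200M and Zeb1_200H against WT, beside 150 of 678 and 131 of 672 miRNAs. Without WT replicate 1 it called miR-375-3p decreased in both (−0.51 and −0.41), beside 74 of 703 and 77 of 699 miRNAs called decreased. The epithelial list, which is the miR-200 guide strands and miR-205-5p, was decreased in 6 of 6 members against WT in both mutants of both cohorts, where 3.83% and 3.42% of all virgin miRNAs were called decreased in Zeb1_200M and Zeb1_200H. What these lower levels contribute to the share of reads taken by miR-124 was not tested.

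Among 499 virgin miRNAs with a mean of at least 50 reads, the 5 with the profile closest to miR-124-3p were found by the root mean square difference of centred log2 levels over 11 libraries. The closest was miR-344d-3p, at 0.258, followed by miR-582-5p (0.405), miR-34c-5p (0.407), miR-488-3p (0.435) and miR-34b-3p (0.438), against a median of 0.939. MiR-344d-3p stood at 3.93, 6.39 and 6.87 CPM in WT, 20.4, 20.4, 15.4 and 20.3 CPM in Zeb1_200H and 31.9, 21.1, 32.9 and 24.6 CPM in Zeb1_200M. In CPM it kept the genotypes apart by a narrow gap between the mutants, while on the TMM scale they overlapped, with Zeb1_200H up to 19.6 and Zeb1_200M from 18.9. MiR-488-3p also kept them apart in CPM alone, with Zeb1_200H up to 30.4 and Zeb1_200M from 31.0. MiR-34b-3p did so on both scales, with Zeb1_200H up to 53.6 CPM and Zeb1_200M from 55.4 CPM. In miR-582-5p and miR-34c-5p the mutants overlapped. The likeness of these 5 to miR-124-3p is what they were picked for. When WT replicate 1 was left out, an alternative added after the data were seen, miR-344d-3p was still closest to miR-124-3p, and 2 of the 5 names were shared.

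Over 10 libraries and 160 miRNAs of the breeding trial cohort, the profiles closest to miR-124-3p were those of miR-330-5p (0.640), miR-140-5p (0.684), miR-384-3p (0.777), miR-487b-3p (0.826) and miR-9-5p (0.827), against a median of 1.11. These distances are larger than those of the virgin cohort, and the 5 virgin names were not among the miRNAs compared here, since their mean counts were below 50. In the virgin cohort, the 5 breeding trial names were at ranks 90, 43, 12, 162 and 143 of 499 by this distance, so none was among the 5 closest there. MiR-330-5p stood at 265, 246, 249.7 and 261 CPM in WT, 573, 666 and 571 CPM in Zeb1_200H and 696, 579.8 and 717 CPM in Zeb1_200M. Unlike miR-124-3p, its mutant groups overlapped, as did those of miR-487b-3p and miR-9-5p. MiR-140-5p and miR-384-3p kept the 3 genotypes apart in the order of miR-124-3p, in CPM and on the TMM scale. MiR-140-5p reached 523 CPM in WT, with 883 to 1043 in Zeb1_200H and 1095 to 1208 in Zeb1_200M. MiR-384-3p reached 710 CPM in WT, with 899 to 1127 in Zeb1_200H and 1264 to 1631 in Zeb1_200M. EdgeR called none of the 10 closest miRNAs of the cohorts between the mutants of its cohort.

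Mature sequences show whether the miRNAs with profiles like that of miR-124-3p share a seed with each other. Sequences of 7 of the 10 were found in RefSeq (build GRCm38.p6), and they have 7 different seeds, which were not compared with that of miR-124. Capitals mark the seed, bases 2 to 8, and each is written from 5′ to 3′. The names miR-34c-5p, miR-140-5p and miR-487b-3p complete the 10.
miR-344d-3p: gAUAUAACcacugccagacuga
miR-582-5p: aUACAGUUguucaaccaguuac
miR-488-3p: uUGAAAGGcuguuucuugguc
miR-34b-3p: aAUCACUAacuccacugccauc
miR-330-5p: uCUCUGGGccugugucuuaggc
miR-384-3p: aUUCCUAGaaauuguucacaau
miR-9-5p: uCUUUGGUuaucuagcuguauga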

How the data were processed

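The authors trimmed reads with cutadapt, matched their first bases to TargetScanMouse names (virgin cohort) or miRBase names (breeding trial cohort), and deposited raw counts per miRNA and library. They also deposited signal values, which are counts divided by DESeq2 size factors, and the log2 fold changes, score values (Wald statistics and standard errors) and p-values of DESeq2 (1.38.3 for the virgin cohort), none of which were used.

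In R 4.3.3, edgeR 4.0.16 was run on the counts of each pair of genotypes of a cohort: TMM scaling, a filter on low counts (minimum 10, total 15), the quasi-likelihood F test, and Benjamini-Hochberg adjustment over the whole fit (threshold 0.05). CPM values are scaled by library totals alone, and levels divided by TMM factors are named as such. Log2 ratios of pairs (counts plus 0.5, mean of at least 10) were fitted with limma 3.58.1. For the interaction with cohort, forms of an arm were summed. Profiles are log2 CPM with a prior count of 2. The steps were tested on simulated data.

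MiR-124 and the lists were chosen with earlier results of these data known. The names given are all those of miR-124, list members that were called or most abundant, the 5 closest profiles per cohort, and neighbours in level. Alternatives were DESeq2 1.42.0, its size factors, no filter, a common fit, voom quality weights, a block of replicate numbers, each form alone, and leaving out each library. After the data were seen, 4 were added: the common fit, the closest profiles and the permutation test without virgin WT replicate 1, and list levels divided by TMM factors. In the breeding trial cohort, libraries of the same number in Zeb1_200H and WT correlated at 0.100 to 0.190 in 3 of 3 pairs, so numbers may mark pairs there. The labels do not say.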

Additional observations from a re-analysis of the deposited data

Results flagged for a closer look

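The level of miR-124-5p in WT replicate 3 of the breeding trial cohort was 11.9 CPM, while the other 3 WT libraries were at 0. In the same library miR-124-5p made up 8.20 of every 1000 miR-124 reads, against 0 in the others. A single sample stood far from the rest of its group in both cases, and both values rest on the same 1 read. Among 15 groups examined in this way 2 stood out. The rule always marks a group of 4 in which all but 1 library are at 0. The groups also share reads, so the number expected by chance is not known here.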

How the results depend on the processing

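The log2 fold changes of every miR-124 name tested were above 0 under each alternative, in each pair of genotypes. The counts of called miRNAs in the virgin comparisons with WT depended most on the setting. For Zeb1_200M the count of 44 became 87 with DESeq2, 90 in a fit of all 3 genotypes, 184 with voom quality weights, 20 with the replicate number as a block, and 25 (without Zeb1_200M replicate 2) to 168 (without WT replicate 1) with 1 library left out. For Zeb1_200H the count of 34 became 66, 67, 152 and 18 under the same settings, and 21 (without Zeb1_200H replicate 1) to 151 (without WT replicate 1). The fit of all 3 genotypes without WT replicate 1, added after the data were seen, gave 184 and 136. Between the virgin mutants the fit of all 3 genotypes called 5 miRNAs in place of 15, with log2 fold changes of 0.56 for miR-124-3p.1 and 0.61 for miR-124-3p.2, neither called. With 1 library left out, these ran from 0.48 to 0.66 and from 0.51 to 0.70, and the calls were lost without Zeb1_200H replicate 1 or 2 (both forms) or Zeb1_200M replicate 1 (miR-124-3p.1). Between the breeding trial mutants, voom and the block each called 5 in place of 3, and leaving out 1 library gave 3 to 5.

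With the replicate number as a block, the log2 fold change of miR-124-3p.1 was 2.21 in virgin Zeb1_200M and 1.73 in Zeb1_200H against WT, and 0.53 between the mutants (adjusted p = 0.0323 by edgeR). That of breeding trial miR-124-3p was 2.63, 1.51 and 0.94 with the block, the last with an adjusted p of 6.31e-05 by edgeR. For Zeb1_200H against WT of that cohort, where numbers may mark pairs, 1.51 thus stands beside 1.64 without the block. The block also called 47 miRNAs in that comparison in place of 32, of which 23 in place of 13 were increased, and 3 brain-enriched miRNAs in place of 1.

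The share of miR-124-3p.2 differed from WT by −4.17 points in Zeb1_200M and −4.70 points in Zeb1_200H in the exact permutation test, which passed its threshold where limma did not. Without WT replicate 1, an alternative added after the data were seen, these were −0.944 and −1.47 points (exact permutation test, p = 0.0667 in each, the smallest that 15 splits allow). The log2 ratio of miR-124-5p to miR-124-3p in virgin Zeb1_200M against WT ran from −0.70 to 0.12 with 1 library left out, and in Zeb1_200H from −0.88 to −0.06. The cohort difference of miR-124-3p in Zeb1_200H turned to 0.16 for miR-124-3p.2 alone and ran from −0.18 to 0.16 with 1 library left out. Dividing levels by the TMM factors, an alternative added after the data were seen, turned the difference from virgin WT in the mean sum of the brain-enriched list from 4180 to −1111 in Zeb1_200M and from 2808 to −1797 in Zeb1_200H. The sign rests on WT replicate 1, without which these TMM differences were 989 and 303. The differences of the oligodendrocyte, leukocyte, endothelial and smooth muscle lists from WT became smaller and stayed above 0. For each result that changed, the cause was not tested. Depth limits miR-124-5p in the breeding trial cohort, where no library had more than 4 reads of it.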

Other observations

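MiR-9-5p is another miRNA of neurons and their precursors, and it gives a second scale for miR-124 within each library. Virgin WT replicates 1, 2 and 4 held 2.80, 5.88 and 6.13 reads of miR-124-3p per read of miR-9-5p. Zeb1_200H libraries held 11.1, 10.0, 10.8 and 13.8, and Zeb1_200M libraries held 19.2, 14.8, 22.6 and 11.9. WT lay below both mutants, which overlapped on this scale. MiR-124 was chosen for its higher level in the mutants, so its ratio to miR-9-5p is a description without a test. In the breeding trial cohort the ratio was 2.90, 2.69, 6.37 and 5.24 in WT, 7.94, 14.3 and 7.94 in Zeb1_200H and 13.8, 9.71 and 13.5 in Zeb1_200M. Again the mutants lay above WT and overlapped, with Zeb1_200H replicate 3, the shallowest library of that cohort, the highest of all.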
